A study of Homo sapiens with 6 samples.

Results

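The genes described here encode the machinery of the primary cilium and of intraflagellar transport (IFT), the traffic of protein trains along it. They were chosen by symbol: a gene entered if its name in the deposited expression table equalled a name on a fixed list of cilium genes. The 45 genes of the list were all found among the 58735 genes of the table, and 41 of them passed the filter on low values that a test required. The samples were 6 RNA-seq libraries of KYSE30, an established line from a human oesophageal squamous cell carcinoma, transfected with siRNA at 100 nM using the HiPerFect reagent. The 2 libraries of si-NC received a control siRNA, the 2 of si-RAB23-1 and the 2 of si-RAB23-9 received 1 each of a pair of siRNAs against RAB23, and no other allele or agent separates the groups. Both RAB23 siRNAs were to be read against si-NC, so the 2 comparisons with it share their control libraries.

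The primary cilium is a non-motile, antenna-like projection that grows from the older centriole, the basal body, and concentrates receptors of pathways such as Hedgehog. It is built by IFT: kinesin-2 carries trains of the IFT-B and IFT-A complexes outward, dynein-2 brings them back, the BBSome loads membrane proteins onto them, and the transition zone at the base gates entry. RAB23 is a small GTPase that restrains the Hedgehog pathway, and the CPLANE proteins INTU, FUZ and WDPCP help to place IFT-A at the cilium base, with INTU and FUZ acting as the exchange factor of RAB23. Many cell lines form cilia mainly when they leave the cell cycle, and whether these cultures carried cilia was not measured in the data used here.

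Values are FPKM, fragment counts scaled by gene length and by library size, and gene coordinates are those of GENCODE 29 on GRCh38. The gene length used is 1 value per gene, such as 8009 bases for IFT27 and 16066 for INTU. It need not be the length of the transcript made, so levels compare only roughly between genes. Read totals recovered from the table ran from 17211025 to 24178125 per library. RAB23 was at 3.27 and 3.33 FPKM in the si-NC libraries, 1.03 and 1.10 in si-RAB23-1, and 1.18 and 1.27 in si-RAB23-9, so every siRNA library lay below both controls. Its mean was 0.322 of the control with si-RAB23-1 and 0.372 with si-RAB23-9. The squamous list had 8 of 9 markers at 1 FPKM or more in some library, with TP63 between 11.4 and 19.7 FPKM, although the basal keratin KRT5 stayed between 0.0394 and 0.272. Of the markers of fibroblasts, leukocytes and endothelium, 1 of 8, 0 of 7 and 1 of 6 reached 1 FPKM, and 5 fibroblast markers, MS4A1 and KDR were listed at 0. The labels call the libraries biological replicates but do not say that they came from separate cultures, so the p-values reflect only how far these libraries spread, and part of that may be technical. In bulk RNA, fewer cells of a kind and less RNA per cell cannot be told apart.

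All parts of the IFT machinery were detected, at low to moderate levels. The motor group spanned a wide range: KIF3B, a motor subunit of kinesin-2, had the highest mean of the 45 genes (25.1 FPKM), while DYNC2H1, the heavy chain of dynein-2, averaged 1.32 FPKM. The lowest mean of the 45 was that of the CPLANE gene FUZ (0.177 FPKM). In IFT-B, the complex of outward transport, means ran from 1.47 FPKM for IFT88 to 9.24 for IFT52. In IFT-A, which serves the return trip and the entry of membrane proteins, they ran from 1.94 for WDR19 to 5.55 for IFT140. BBS10, a chaperonin-like protein that helps to assemble the BBSome, averaged 7.40 FPKM, and the BBSome subunit BBS5 only 0.317. INPP5E, the lipid phosphatase that keeps the ciliary membrane distinct, averaged 7.96 FPKM, and the BBSome-recruiting GTPase ARL6 averaged 1.34. At the base, the centriolar protein gene OFD1 averaged 4.48 FPKM and the transition zone scaffold RPGRIP1L 1.56.

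**Figure D1:**
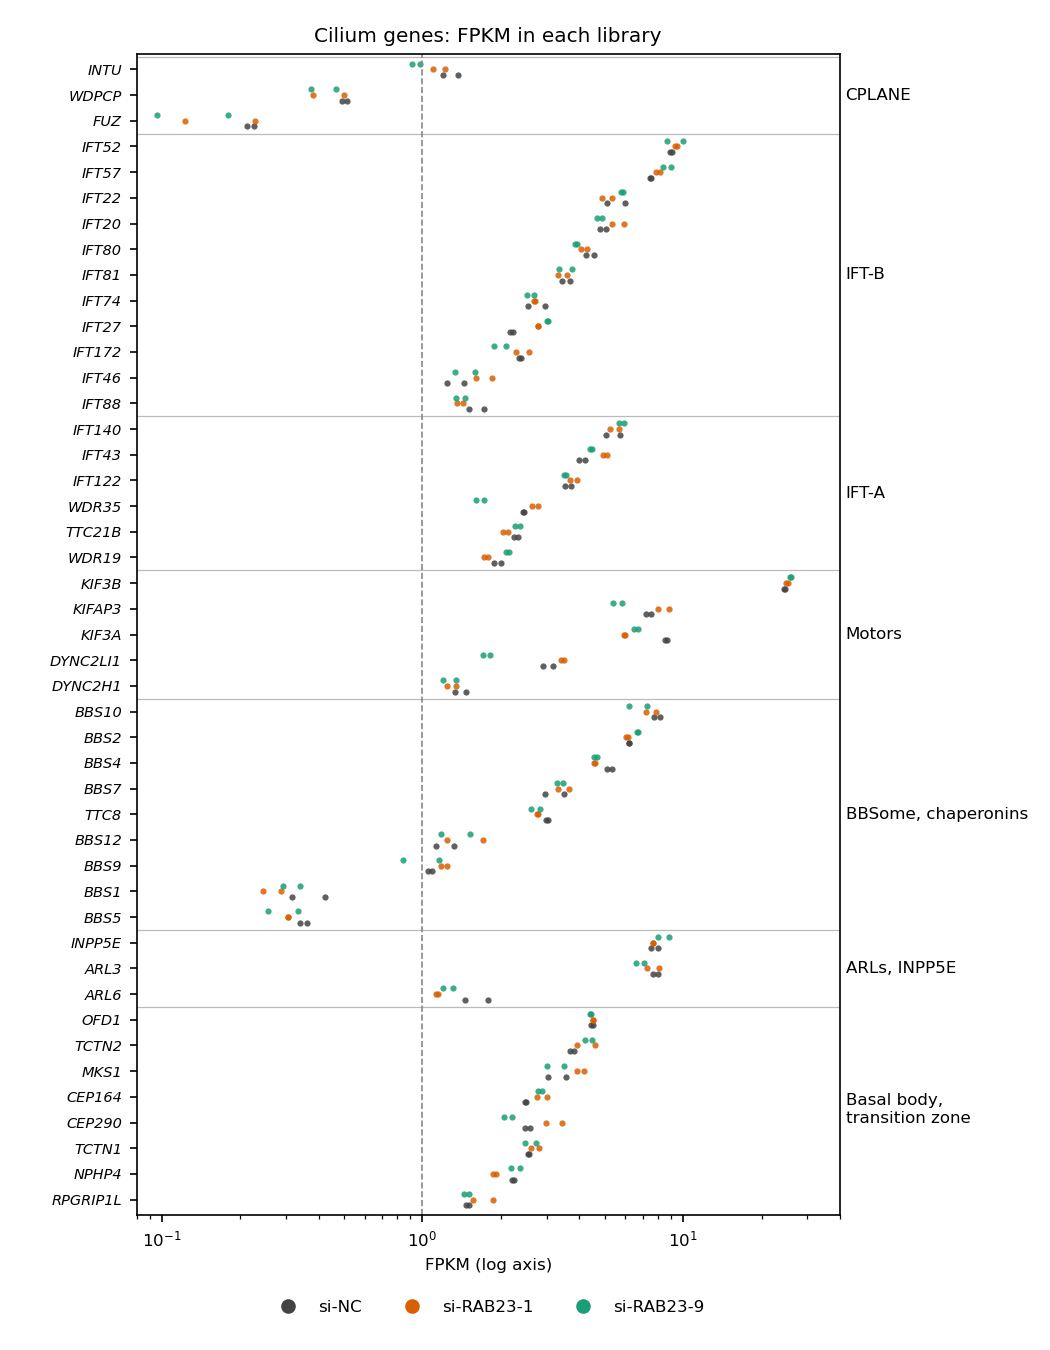
FPKM of the 45 cilium genes in each of the 6 libraries, on a log axis and grouped by role, with 1 point per library. KIF3B stands highest, near 25 FPKM, and FUZ, BBS1, BBS5 and WDPCP lie below 1 FPKM in every library.

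FUZ, WDPCP, BBS1 and BBS5 did not pass the filter of 1 FPKM in at least 2 libraries and were not tested. FUZ ranged from 0.0955 to 0.229 FPKM, on 5 to 15 reads per library, and WDPCP from 0.373 to 0.512. The BBSome subunit genes BBS1 and BBS5 ranged from 0.246 to 0.423 and from 0.256 to 0.359 FPKM. FUZ overlaps AP2A1 on the opposite strand, which averaged 20.8 FPKM, and WDPCP overlaps MDH1 in the same way (27.3 FPKM). Whether the libraries kept strand is not given in the sources used here, and without strand, reads of such partners cannot be told apart. In all, 15 of the 45 genes overlap a gene with a mean of at least 1 FPKM.

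A sequence feature was more frequent in the promoters of the set than in all promoters, although most of the set lacked it. RFX transcription factors, master regulators of ciliary genes, bind the X-box, an inverted repeat whose core reads GTTGCC on either strand. Promoter sequences, from 250 bases before to 50 after the start, came from RefSeq (GRCh38.p14), which had an entry for 41 of the 45 genes, all but BBS9, IFT22, TCTN2 and WDR35. The 6-base core GTTGCC, searched on both strands, was in 19 of the 41 (46.3%), against 12.6% of the 8741 protein-coding promoters of tested genes and 12.2% of all 35116 promoters. Of its 23 copies, 19 lay between 100 bases before and 50 after the start. The fuller X-box pattern, with fixed bases in both arms of the repeat, also searched on both strands and able to include the core, was in ARL6, IFT57 and INTU (7.32% of 41), against 2.46% of tested genes and 2.28% of all promoters. The search was chosen after the expression values had been seen, and a match is a description of letters, not a shown binding site. The 3 X-box matches are printed first, then the core copies in the promoters of DYNC2LI1 and IFT27, which are among the genes that changed, each on the strand of its gene with the match in capitals.
ARL6, chr3:97764734-97764747, plus strand: aagctcctGTTGCCAAGGGAACggtgcctg
IFT57, chr3:108222441-108222454, minus strand: ggagtctaGTTTCCCTGGTGACggattgtc
INTU, chr4:127632881-127632894, plus strand: gcttctccGTCTCCCTGGCAACgcgacctg
DYNC2LI1, chr2:43774031-43774036, plus strand: cgctcccatGGCAACccagaaggc
IFT27, chr22:36776155-36776160, minus strand: gcttttggcGGCAACcaatcgagg

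Across the set, few genes were called with either siRNA. A gene was called where limma gave an adjusted p under 0.05 (Benjamini-Hochberg, two-sided, over all 14352 genes tested) on log2(FPKM + 1), a scale that understates the change of low genes such as these. With si-RAB23-1, IFT43 rose and KIF3A fell, 1 of 41 genes in each direction (2.44%), where 8.13% of all tested genes rose and 7.26% fell. With si-RAB23-9, IFT27 rose (2.44%, against 7.56% of all genes) and DYNC2LI1, WDR35, KIFAP3 and KIF3A fell (9.76%, against 5.69%). Between the siRNAs, DYNC2LI1, KIFAP3, WDR35 and CEP290 were lower with si-RAB23-9 than with si-RAB23-1 (9.76%, against 9.89%). No gene of the 41 was higher there by limma, where 11.1% of all genes were, although 3 had an unadjusted p under 0.05 and limma's voom on recovered reads called 2. In either direction, 10 of the 41 had such an unadjusted p (24.4%), against 36.2% of all genes.

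On the log2(FPKM + 1) scale, the remaining differences were small. As ratios of mean FPKM, some were near the size of called ones. ARL6 was at 0.703 of the control with si-RAB23-1 and INTU at 0.737 with si-RAB23-9, where KIF3A was at 0.695 and 0.766. With si-RAB23-1, IFT46 was at 1.28 and CEP290 at 1.27 of the control, where the called IFT43 was at 1.22. The median log2 difference over the 41 genes was 0.02 with si-RAB23-1, -0.01 with si-RAB23-9 and -0.03 between the siRNAs, and over all tested genes it lay within 0.01 of 0 each time. The median size of the difference, sign aside, was 0.0931, 0.0897 and 0.107, against 0.127, 0.118 and 0.141 over all genes. Genes that were not called lay between -0.29 and 0.25 (39 genes), -0.23 and 0.19 (36 genes) and -0.25 and 0.18 (37 genes) in the same order. The median standard error was 0.0701, so a typical difference was of the order of its own standard error. The libraries of the 2 groups did not overlap for 26 of 41 genes with si-RAB23-1 (63.4%, against 60.2% of all genes), for 23 with si-RAB23-9 (56.1%, against 61.2%) and for 28 between the siRNAs (68.3%, against 63.2%). These shares are close to those of all genes, so a gap between 2 pairs of libraries is common here.

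**Figure D2:**
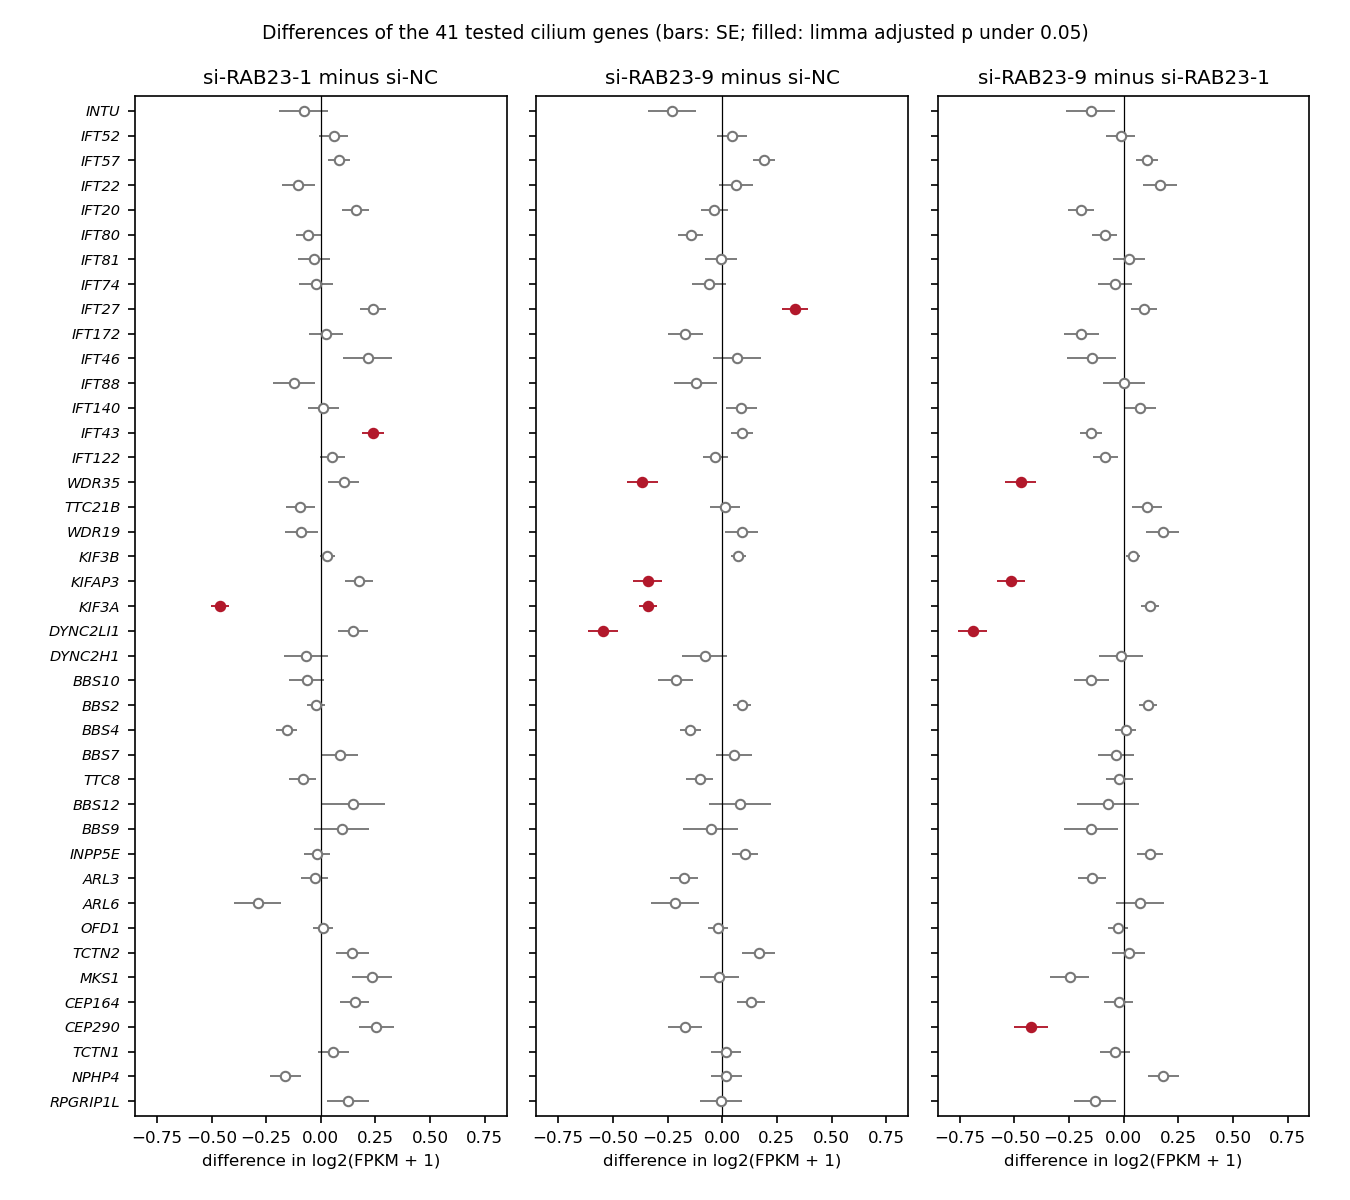
Differences in log2(FPKM + 1) for the 41 tested cilium genes in the 3 comparisons, grouped by role, with standard errors as bars and filled points for genes with a limma adjusted p under 0.05. Most points sit within 0.2 of 0, and the lowest are DYNC2LI1 with si-RAB23-9 (-0.55 against si-NC and -0.69 against si-RAB23-1) and KIF3A with si-RAB23-1 (-0.46).

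Among the CPLANE genes only INTU could be tested, and it was not called in any comparison. INTU was at 1.20 and 1.37 FPKM in si-NC, 1.10 and 1.22 in si-RAB23-1, and 0.913 and 0.979 in si-RAB23-9. The si-RAB23-9 libraries were the lowest pair and did not overlap the others, while si-RAB23-1 overlapped si-NC. The log2 difference of INTU was -0.08 with si-RAB23-1 (adjusted p = 0.677, limma) and -0.23 with si-RAB23-9 (adjusted p = 0.237). With voom, the test on recovered reads, the adjusted p with si-RAB23-9 was 0.00228.

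Of the motors, KIF3A fell with both siRNAs while its partner KIF3B was not called with either. KIF3A encodes the subunit that pairs with KIF3B in the heterotrimeric kinesin-2 (chr5:132692628-132737638). It was at 8.66 and 8.56 FPKM in si-NC, 6.01 and 5.96 in si-RAB23-1, and 6.49 and 6.70 in si-RAB23-9. Both siRNA groups lay below both control libraries, with means at 0.695 and 0.766 of the control. The log2 difference was -0.46 (SE 0.0422, adjusted p = 0.00398) with si-RAB23-1 and -0.34 (adjusted p = 0.00898) with si-RAB23-9, and the siRNAs did not differ by the test (0.12, adjusted p = 0.0982). The si-RAB23-1 result was called under all 14 alternative analyses that gave a value. The si-RAB23-9 result lost its call when any 1 of the 4 libraries compared was left out (adjusted p up to 0.0695). KIF3B was at 24.4 and 24.5 FPKM in si-NC, 25.2 and 24.8 in si-RAB23-1, and 25.7 and 25.9 in si-RAB23-9, a range of log2 differences from 0.03 to 0.07.

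KIFAP3, the gene of the accessory subunit that links this motor to its cargo (chr1:169921326-170085208), fell with si-RAB23-9 by as much as KIF3A but was not called with si-RAB23-1. It was at 7.19 and 7.55 FPKM in si-NC, 8.86 and 8.04 in si-RAB23-1, and 5.37 and 5.85 in si-RAB23-9. The 3 groups did not overlap, with si-RAB23-1 highest and si-RAB23-9 lowest. Against si-NC, the log2 difference was 0.17 with si-RAB23-1 (adjusted p = 0.136) and -0.34 with si-RAB23-9 (SE 0.0656, adjusted p = 0.0269). Between the siRNAs it was -0.52 (adjusted p = 0.00695), a result called in all 14 alternatives. The difference from si-NC was lost in 6 of 14 alternatives, among them each that left out 1 of the 4 libraries compared (adjusted p up to 0.145).

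Dynein-2 showed the largest difference of the set, in its light intermediate chain and not in its heavy chain. DYNC2LI1, the light intermediate chain that stabilises the heavy chain (chr2:43774039-43810010), was at 3.17 and 2.89 FPKM in si-NC. It was at 3.50 and 3.41 in si-RAB23-1 and at 1.81 and 1.71 in si-RAB23-9. The si-RAB23-9 pair stood well below the other 4 libraries, at 0.581 of the control mean and 0.509 of the si-RAB23-1 mean. The log2 difference was -0.55 against si-NC (SE 0.0678, adjusted p = 0.00902) and -0.69 against si-RAB23-1 (adjusted p = 0.0035), and 0.15 for si-RAB23-1 against si-NC (adjusted p = 0.205). The difference between the siRNAs was called in all 13 alternatives that gave a value. The one against si-NC was lost without any 1 of the 4 libraries compared (adjusted p up to 0.0677). DYNC2H1 was at 1.34 and 1.47 FPKM in si-NC, 1.24 and 1.35 in si-RAB23-1, and 1.20 and 1.34 in si-RAB23-9. All 3 of its groups overlapped, and no difference from si-NC exceeded its standard error of 0.101.

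In IFT-A, 4 of 6 genes were not called by limma in any comparison, and the 2 that were moved differently. Of the 4, voom called WDR19 higher between the siRNAs (adjusted p = 0.0205). WDR35, known as IFT121, is a core subunit (chr2:19910260-19990131). It was at 2.43 and 2.45 FPKM in si-NC, 2.63 and 2.77 in si-RAB23-1, and 1.73 and 1.61 in si-RAB23-9, again with the si-RAB23-9 pair lowest and no overlap. The log2 difference was -0.37 against si-NC (SE 0.0701, adjusted p = 0.0266), -0.47 against si-RAB23-1 (adjusted p = 0.0106) and 0.10 for si-RAB23-1 against si-NC (adjusted p = 0.365). The call against si-NC was lost in 6 of 13 alternatives, among them each without 1 of its 4 libraries (adjusted p up to 0.137), and the call between the siRNAs was lost without si-RAB23-9 replicate 2 (adjusted p = 0.0659). IFT43, the small subunit that binds WDR35 (chr14:75902136-76084585), rose with si-RAB23-1 instead. It was at 3.99 and 4.21 FPKM in si-NC, 4.93 and 5.09 in si-RAB23-1, and 4.47 and 4.38 in si-RAB23-9, so both siRNA groups lay above the control. The difference was 0.24 with si-RAB23-1 (SE 0.0508, adjusted p = 0.0337) and 0.09 with si-RAB23-9 (adjusted p = 0.306). The call was lost in 9 of 13 alternatives, among them each without 1 of the 6 libraries (adjusted p up to 0.161). IFT43 overlaps TTLL5 on the same strand, whose own difference with si-RAB23-1 was -0.06 at a mean of 3.16 FPKM. The highest and lowest genes of the complex, IFT140 and WDR19, differed from si-NC by 0.09 at most.

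In IFT-B, 1 of 11 genes was called. IFT27, a Rab-like GTPase of the complex that helps the BBSome to leave the cilium (chr22:36758202-36776256), was at 2.23 and 2.17 FPKM in si-NC. It was at 2.77 and 2.79 in si-RAB23-1 and at 3.03 and 3.02 in si-RAB23-9, above both controls in all 4 libraries. The log2 difference was 0.33 with si-RAB23-9 (SE 0.0596, adjusted p = 0.0224) and 0.24 with si-RAB23-1, just outside the threshold (adjusted p = 0.0501). The si-RAB23-1 difference was called with quantile normalization, a pseudocount of 0.1, median-of-ratios scaling and voom, and over all alternatives its adjusted p ran from 0.00916 (voom) to 0.2 (1 library left out). The siRNAs differed by 0.09 (adjusted p = 0.319). The si-RAB23-9 call was lost without any 1 of its 4 libraries (adjusted p up to 0.124) and with the filter removed. The 10 other genes of the complex were not called in the main limma fit, and voom called 1 more, IFT57, higher with si-RAB23-9 (adjusted p = 0.0421). IFT52, a core scaffold subunit, was at 9.05 and 8.94 FPKM in si-NC, 9.28 and 9.52 in si-RAB23-1, and 10 and 8.65 in si-RAB23-9. IFT88, the subunit lost in classical cilium mutants, was at 1.72 and 1.51, 1.36 and 1.44, and 1.34 and 1.46 FPKM in the same order, with both siRNA groups below si-NC. Its difference was -0.12 with each siRNA (adjusted p = 0.436 and 0.462).

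None of the 7 tested genes of the BBSome and its chaperonins was called by limma in any comparison. At an unadjusted p under 0.05, 1 was lower with si-RAB23-1, 2 were lower with si-RAB23-9 and 1 was higher between the siRNAs, and voom called 0, 1 and 0. Among all tested genes, 31.7%, 29.7% and 36.2% had such an unadjusted p, in either direction. Voom called 3800, 3408 and 4493 of the 14352. BBS10 was at 8.13 and 7.73 FPKM in si-NC, 7.86 and 7.22 in si-RAB23-1, and 7.24 and 6.19 in si-RAB23-9. Its si-RAB23-9 libraries were below both controls, by 0.21 on the log2 scale (adjusted p = 0.143). The 3 genes of the ciliary GTPases and the lipid phosphatase were not called either, with 1 lower at an unadjusted p under 0.05 with each siRNA, and 1 and 0 by voom. ARL6 was at 1.79 and 1.45 FPKM in si-NC, 1.15 and 1.13 in si-RAB23-1, and 1.31 and 1.20 in si-RAB23-9. Both siRNA groups were below si-NC, by 0.29 (adjusted p = 0.137; 0.0123 by voom) and 0.22 (adjusted p = 0.255). INPP5E, whose siRNA libraries overlapped si-NC in both groups, differed by -0.02 and 0.10.

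Of the 8 basal body and transition zone genes, limma called CEP290 alone, and between the siRNAs only. CEP290 encodes a large linker between the microtubules and the membrane of the transition zone (chr12:88049014-88142216). It was at 2.47 and 2.58 FPKM in si-NC, 3.43 and 2.98 in si-RAB23-1, and 2.21 and 2.06 in si-RAB23-9. As for KIFAP3, the si-RAB23-1 pair was highest and the si-RAB23-9 pair lowest, without overlap. The difference between the siRNAs was -0.42 (SE 0.0792, adjusted p = 0.0193), made of 0.25 (adjusted p = 0.0889) and -0.17 (adjusted p = 0.223) against si-NC. It was lost without si-RAB23-1 replicate 1 or either si-RAB23-9 library (adjusted p up to 0.102), and with the filter removed. Voom on recovered reads also called CEP290 against si-NC, higher with si-RAB23-1 (adjusted p = 0.00482) and lower with si-RAB23-9 (adjusted p = 0.0464). It further called NPHP4, of the nephronophthisis module, lower with si-RAB23-1 (adjusted p = 0.0127), and NPHP4 higher and MKS1, of the transition zone gate, lower between the siRNAs (adjusted p = 0.00665 and 0.0485). CEP290 overlaps C12orf29 on the opposite strand, which differed by -0.03 between the siRNAs. OFD1 was at 4.53 and 4.45 FPKM in si-NC, 4.53 and 4.51 in si-RAB23-1, and 4.43 and 4.41 in si-RAB23-9, so that its log2 differences lay between -0.03 and 0.01. RPGRIP1L differed from si-NC by 0.12 and -0.01 (adjusted p = 0.429 and 0.97).

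**Figure D3:**
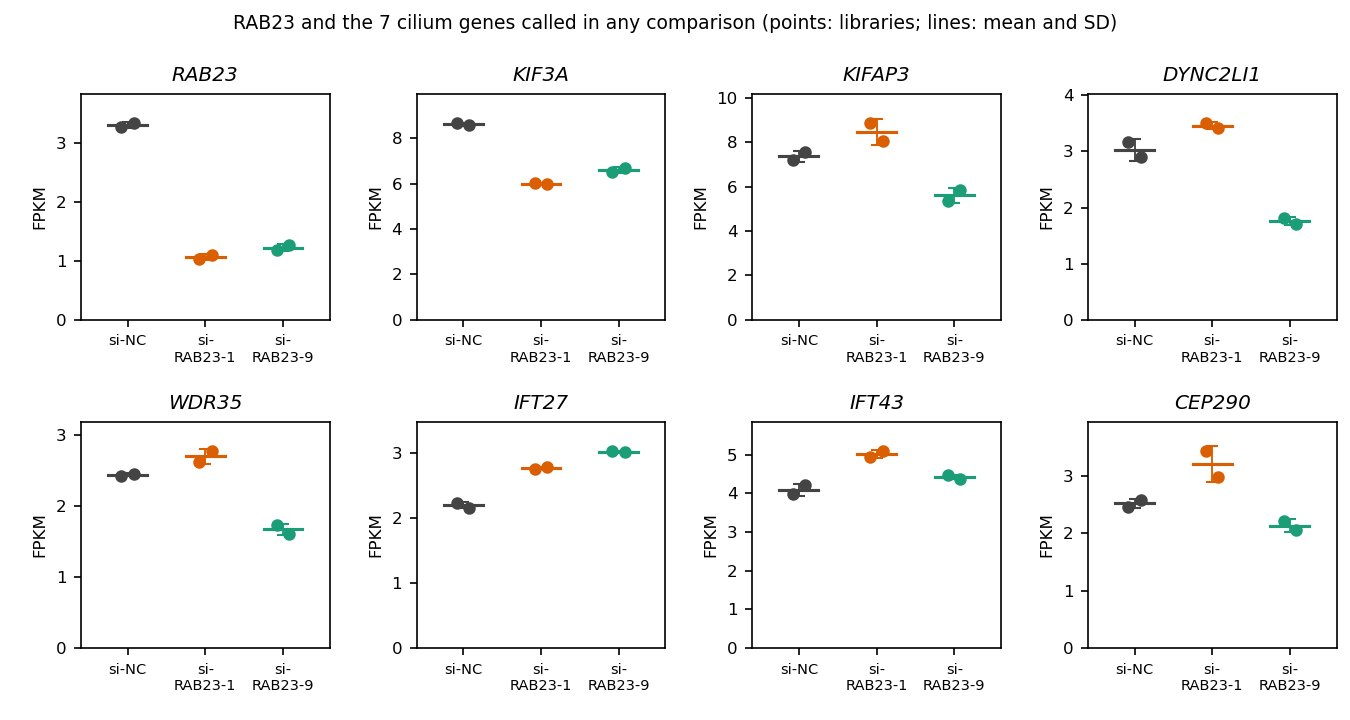
FPKM of RAB23 and of the 7 cilium genes called in any comparison, with 1 point per library and lines for the mean and SD of each group of 2. KIF3A is below si-NC in both siRNA groups and IFT27 above it, while KIFAP3, DYNC2LI1, WDR35 and CEP290 are lowest in si-RAB23-9.

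Letters in the 3′ untranslated regions (UTRs) were searched next, since an siRNA can lower transcripts whose 3′ UTR matches its seed. The sources used here do not give the siRNA sequences. For si-RAB23-9, the 7-mer AAGTTAA had been picked in earlier work on these data because genes that fell with si-RAB23-9 were rich in it, so its link to that siRNA is a description. It was searched on the transcript strand of all annotated 3′ UTRs of coding transcripts (GENCODE 29, GRCh38). It was in 7 of the 41 tested cilium genes (17.1%), against 18.6% of the 10910 genes scanned. Of the 7, DYNC2LI1 and WDR35 fell with si-RAB23-9 (28.6%), against 2 of the 34 genes without it (5.88%), KIF3A and KIFAP3. Such shares restate how the 7-mer was picked, and nothing is read from them about the siRNA. Over all genes scanned the shares that fell were 17.3% with it and 4.21% without. Between the siRNAs, 3 of the 7 were lower with si-RAB23-9 (42.9%), against 1 of 34 (2.94%), and 21.9% against 9.20% over all genes. The median difference of the 7 genes from si-NC was -0.22 with si-RAB23-9, and that of the 34 others was 0.0036. With si-RAB23-1 none of the 7 was called by limma. Genes that hold it also had longer 3′ UTRs, with a median longest 3′ UTR of 3193 bases against 903.5 in the set and 3036 against 1106 over all genes, and the part of this length in the result was not tested. The sites of all 7 genes are printed with 8 bases on each side and the 7-mer in capitals. WDR35 has a copy in each of 2 alternative 3′ UTRs.
DYNC2LI1, chr2:43809858-43809864, plus strand: tgtgaagaAAGTTAAactgtata
WDR35, chr2:19913128-19913134, minus strand: ttacaaggAAGTTAAacaattgt
WDR35, chr2:19935041-19935047, minus strand: agtatttcAAGTTAAaagagaaa
CEP290, chr12:88049131-88049137, minus strand: aactttatAAGTTAAatatactt
INTU, chr4:127724088-127724094, plus strand: cactgaaaAAGTTAActaaaatt
ARL6, chr3:97798630-97798636, plus strand: ctgagactAAGTTAAgctgaatt
RPGRIP1L, chr16:53601134-53601140, minus strand: agctctgaAAGTTAAttttctag
BBS7, chr4:121825787-121825793, minus strand: agaattagAAGTTAActgtgtat

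**Figure D4:**
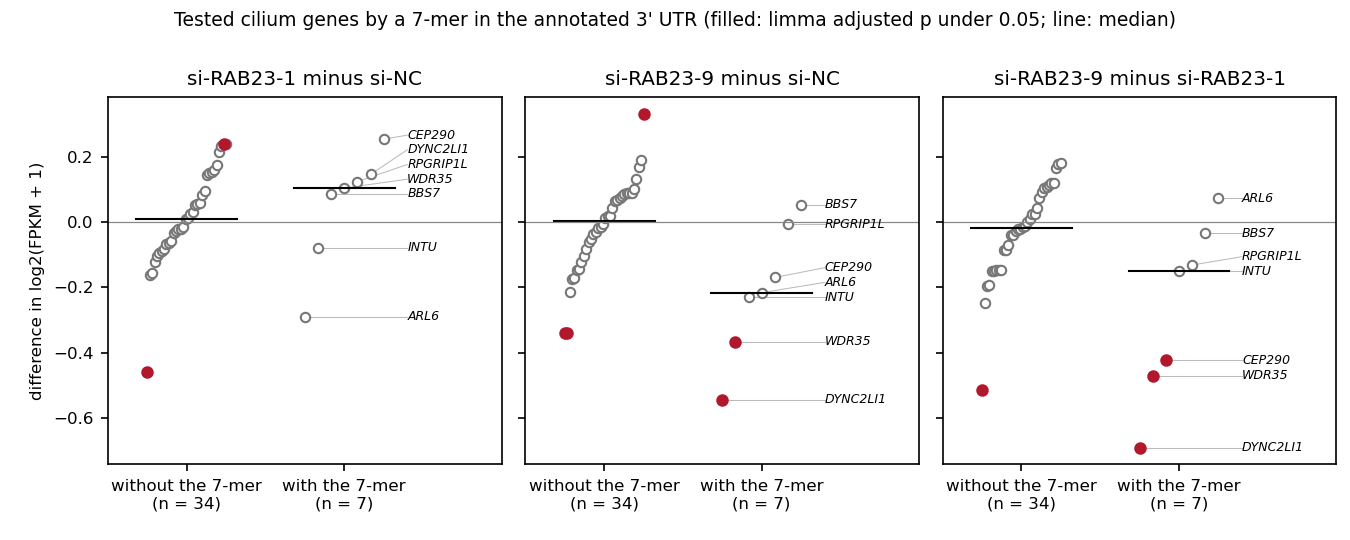
Differences in log2(FPKM + 1) of the 41 tested cilium genes without (34) and with (7) the 7-mer AAGTTAA in an annotated 3′ UTR, in the 3 comparisons, with filled points for limma adjusted p under 0.05 and a line at the median. In the comparisons of si-RAB23-9 the genes with the 7-mer reach lower, to DYNC2LI1 at -0.55 and -0.69, and with si-RAB23-1 none of them is filled. The 7-mer was picked on these data.

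GACATAT, the 7-mer picked in the same way for si-RAB23-1, was in ARL6, with 2 copies, and in OFD1 (4.88% of 41, against 8.51% of all genes scanned). By limma neither gene was called with that siRNA, and voom called ARL6 lower. Over all genes scanned 25.6% of those with it fell with si-RAB23-1, against 7.11% of those without, a share that restates how the 7-mer was picked. TCGGAGA, another 7-mer searched, was in ARL3 and OFD1 (4.88% of 41, against 2.59% of all genes scanned). By limma neither gene was called against si-NC. Over all genes scanned, 283 held it. Of these, 59 rose and 19 fell with si-RAB23-1, and 67 rose and 9 fell with si-RAB23-9. Their median differences were 0.06 and 0.10, against 0.01 for genes without it with each siRNA. How it was picked is not given here, and the cause was not tested. KIF3A, which fell with both siRNAs, has a longest 3′ UTR of 4006 bases and held none of these 7-mers. By promoter core, limma called none of the 16 tested genes with GTTGCC with si-RAB23-1, where voom called IFT27 higher and ARL6 lower, and IFT27 rose and DYNC2LI1 fell with si-RAB23-9. Of 21 without it, IFT43 rose and KIF3A fell with si-RAB23-1, and KIF3A and KIFAP3 fell with si-RAB23-9.

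Other genes of the same machinery were read from lists beside the set. Of 16 further IFT, dynein-2 and kinesin-2 genes, 2 rose and 3 fell with si-RAB23-1, 4 rose and 1 fell with si-RAB23-9, and 4 were higher and 1 lower between the siRNAs. Among all tested genes, 8.13% rose and 7.26% fell with si-RAB23-1, and 7.56% rose and 5.69% fell with si-RAB23-9. Between the siRNAs, 11.1% were higher and 9.89% lower. KIF3C, an alternative kinesin-2 motor subunit, rose with si-RAB23-9 from 6.87 ± 0.109 to 10.3 ± 0.0189 FPKM (SD, n = 2; log2 difference 0.53, limma adjusted p = 0.00331). DYNLT3, a dynein light chain, fell with both siRNAs, by 0.29 and 0.45. The dynein-2 intermediate chain gene WDR34 fell by 0.21 with si-RAB23-1 and rose by 0.16 with si-RAB23-9. DYNLL2, another light chain, rose by 0.16 and 0.32, and TRAF3IP1, which encodes the IFT-B subunit IFT54, rose by 0.29 with si-RAB23-9. Among 16 further BBSome, ARL and cargo genes, ARL2BP, a binding partner of ARL GTPases, fell by 0.62 with si-RAB23-1, and RAB8A, a GTPase of ciliary membrane delivery, fell by 0.38 with si-RAB23-9. None of the 16 rose with either siRNA by limma, although 2 and 3 were higher at an unadjusted p under 0.05, and voom called 0 and 2. In either direction, 31.7% and 29.7% of all tested genes had such an unadjusted p.

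Of 17 further transition zone and inversin compartment genes tested, TMEM216, of the tectonic complex, rose with both siRNAs, from 4.01 ± 0.0968 FPKM to 6.26 ± 0.543 and 6.36 ± 0.576 (SD, n = 2), by 0.53 and 0.55. It was the only one of them that limma called against si-NC, where voom called 2 higher with si-RAB23-1, and 2 higher and 1 lower with si-RAB23-9. Of 22 further basal body and ciliogenesis genes tested, CEP97, whose protein caps centrioles and holds back cilium growth, fell by 0.38 with si-RAB23-1, where 5 were lower at an unadjusted p under 0.05 and voom called 7 lower. The median difference of the 22 with that siRNA was -0.10, against 0.01 over all genes. None of the 22 was called with si-RAB23-9 by limma, where 3 were higher and 2 lower at an unadjusted p under 0.05, and voom called 2 and 2. Over all tested genes, limma called 15.4% with si-RAB23-1 and 13.3% with si-RAB23-9, in either direction. An unadjusted p under 0.05 was reached by 31.7% and 29.7%, and voom called 3800 and 3408 of the 14352. CEP131, of the centriolar satellites, was higher by 0.40 between the siRNAs.

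Genes that act on cilia from outside the structure were read last. Of 11 tested genes of cilium disassembly, among them mitotic kinases, 4 fell and none rose with si-RAB23-1, where voom and an unadjusted p under 0.05 also gave none higher. They were NEK2 (-0.41), AURKA (-0.38), PLK1 (-0.32) and BUB1 (-0.17). Over all tested genes, 7.26% fell and 8.13% rose with si-RAB23-1, and 5.69% fell and 7.56% rose with si-RAB23-9. With si-RAB23-9, NDE1, which holds back cilium length, rose by 0.28 and BUB1 by 0.18, and 5 of the 11 were higher with si-RAB23-9 than with si-RAB23-1, where 11.1% of all genes were. Of 8 tested RFX and FOXJ1 regulators, RFX5 fell by 0.72 and RFX7 by 0.34 with si-RAB23-1. With that siRNA 5 of the 8 were lower and 0 higher, both at an unadjusted p under 0.05 and by voom. Their median difference was -0.26, against 0.01 over all genes. TP73, a p53 relative that drives multiciliated cell genes, rose by 0.29 with si-RAB23-9. There, 2 of the 8 were higher and 0 lower by both of these measures. Among all tested genes, 31.7% had an unadjusted p under 0.05 with si-RAB23-1 and 29.7% with si-RAB23-9, in either direction. Voom called 3800 and 3408 of the 14352. RFX1, RFX2 and RFX3 were not called by limma in any comparison. RFX5 is best known as an activator of MHC class II genes. Between the siRNAs FOXJ1, the motile cilium regulator, was higher by 0.83, RFX5 by 0.68, RFX7 by 0.47 and TP73 by 0.46 with si-RAB23-9. Motile ciliated cells, a type that the line should lack, had 2 of 13 markers at 1 FPKM or more: FOXJ1 (0.617 to 2.35 FPKM) and the calcium-binding protein gene CAPS (70.4 to 126.9). Their summed level, nearly all CAPS, was 98.0 to 102 FPKM in si-NC, 73.5 to 86.8 in si-RAB23-1 and 122.8 to 131.6 in si-RAB23-9. The axonemal dynein gene DNAI2 was listed at 0 in all 6 libraries. The endothelial cadherin gene CDH5, the marker of that list above 1 FPKM, fell by 0.77 with si-RAB23-1. Of the 9 squamous markers, limma called 7 in some comparison. Among all tested genes, it called 15.4% with si-RAB23-1, 13.3% with si-RAB23-9 and 21% between the siRNAs, in either direction. The share of all genes called in any of these comparisons is not given here, so whether 7 of 9 is unusual cannot be judged. With si-RAB23-1, KRT6A, KRT17, TP63 (0.40), DSG3 and PERP rose and none fell. With si-RAB23-9, KRT6A and PERP rose and TP63 (-0.28) and SFN fell. The part of these markers in the differences of the cilium genes was not tested.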

How the data were processed

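The authors deposited 1 table of FPKM values for 58735 genes and 6 libraries. The aligner STAR 2.5.1b, the quantifier RSEM 1.2.29, edgeR 3.8.5, the trimmer Trimmomatic 0.36, FastQC and the build hg19 are named, with no step described, per the submitters' processing notes, but all 58735 gene coordinates equal GENCODE 29 on GRCh38. FPKM times gene length, divided by 1 step per library (the value of 1 read, fitted from the values), gave whole reads for 100% of values above 0, within 0.01 of a read.

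Here log2(FPKM + 1) was tested with limma 3.58.1 in R 4.3.3 (a mean per group, trended eBayes, 3 residual degrees of freedom) over the 14352 genes at 1 FPKM or more in at least 2 libraries. Adjusted p-values are Benjamini-Hochberg over all of these. The fit was tested on simulated data. Named were all called members, the CPLANE genes, the members under the filter, the highest and lowest of each role, and up to 4 called genes per other list and comparison. Members and lists were chosen with earlier results of these data known. Alternatives changed the scaling, pseudocount, filter, samples, replicate block and test.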

Additional observations from a re-analysis of the deposited data

How the results depend on the processing

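None of the 11 called differences of the cilium genes changed sign under an alternative, while 33 of all 123 differences did, none above 0.0867 in size. A filter at a mean FPKM of at least 5 kept only the 12 members of highest mean, down to IFT20 (5.12 FPKM). It left out IFT43, IFT27, DYNC2LI1, WDR35 and CEP290, which could not be called there. Over the 12 members kept, the medians turned sign, to -0.00214 with si-RAB23-1, 0.0541 with si-RAB23-9 and 0.0596 between the siRNAs. With voom the median of the set turned sign to -0.00511 for si-RAB23-1. For si-RAB23-1, the cilium genes called higher numbered 2 with median-of-ratios scaling, quantile normalization or a pseudocount of 0.1, 3 with voom on recovered reads, and 0 with no filter, a mean FPKM of at least 5, only the 2 groups compared, or any 1 library left out. Those called lower numbered 3 with voom. For si-RAB23-9, those called higher numbered 0 with no filter and 2 with voom. The filter at a mean FPKM of at least 5 gave 1, which was not IFT27, since that filter leaves it out. Those called lower numbered 2 with no filter or a mean FPKM of at least 5, and 7 with voom. The si-RAB23-9 calls were lost when any library of si-NC or si-RAB23-9 was left out, as given above for each gene. They stayed when a si-RAB23-1 library, outside this comparison, was left out. Between the siRNAs, 2 were called higher with voom, while those called lower numbered 1 when a mean FPKM of at least 5 was required, and 2 to 4 with 1 library left out. Over all genes, calls with si-RAB23-1 numbered 1049 with no filter, 1234 with only the 2 groups compared, 3800 with voom and 338 to 1820 with 1 library left out. With si-RAB23-9 they numbered 983, 2093, 3408 and 258 to 2075, and between the siRNAs 1458, 1919, 4493 and 705 to 2691. Beyond the members that the filter at 5 FPKM leaves out, the cause of these shifts was not tested.

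With the replicate block, 0 cilium genes were called higher with si-RAB23-1 and 2 lower with si-RAB23-9, where WDR35 (adjusted p = 0.0531) and KIFAP3 (0.0539) lost their calls, as did IFT43 (0.0584) with si-RAB23-1. The groups share only numbers: the deviations of same-numbered libraries correlated at -0.0562, -0.0158 and 0.0610. A planned quasi-likelihood test on the recovered reads was not run, and voom on the same reads stood in. NPHP4, MKS1, IFT57 and WDR19 as voom calls were named after their values were seen. With 2 libraries a group and a median standard error of 0.0701, small differences may have been missed, and FUZ, at 5 to 15 reads, could not be assessed.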
